A study of Drosophila melanogaster with 6 samples.

Results

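The odorant receptors (Or), gustatory receptors (Gr) and ionotropic receptors (Ir) are the receptor families with which Drosophila melanogaster senses odours, tastes, humidity and temperature. Genes were taken as members by their symbol, that is Or, Gr or Ir followed by a number and a letter, and 38 of the 11491 genes in the deposited testis expression table met this rule. They comprised 9 odorant, 15 gustatory and 14 ionotropic receptors. A member was called detected when the mean of either group was at least 10 normalized reads, meaning gene reads divided by the size factor of their library and averaged over the group.

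The study compared testes of Zeus-KO mutants (Zeus KO, 3 libraries) with testes of the control injection line, labelled WT (control, 3 libraries). Zeus (Rcd-1r) is a young duplicate of Caf40 (Rcd-1), and the Zeus KO flies carried CRISPR frameshift indels in its coding sequence that created early stop codons. Both groups were in the background of stock BDSC 25710, which carries nos-phiC31 integrase on the X chromosome, an attP2 landing site and mutations in y, sc, v and sev. The material was whole testes of adult males, and poly(A)-selected RNA was sequenced. Whether the 3 Zeus KO libraries came from 1 mutant line is not given in the sources used here. The labels place the flies at 25 degrees and speak of dissection in PBS with a span of 1 to 2 days, for both groups. Whether that span is a time in PBS or the age of the flies was not settled, and no other age is given.

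Odorant receptors form ion channels together with the co-receptor Orco and are best known from olfactory neurons of the antenna and maxillary palp. Gustatory receptors include the sugar, bitter and carbon dioxide receptors of taste and olfactory neurons. Ionotropic receptors derive from ionotropic glutamate receptors and work with the co-receptors Ir8a, Ir25a and Ir76b. In the mosquito Anopheles gambiae, odorant receptors have also been found in sperm.

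Sequencing depth was 12533272 to 18846182 reads in Zeus KO libraries and 13593449 to 16086598 in control libraries (p = 0.7 in an exact permutation test, 2-sided, which with 3 libraries a group cannot go under 0.1). The targeted gene, Rcd-1r, had 269, 269 and 328 normalized reads in Zeus KO libraries, against 319, 338 and 380 in control libraries. The groups overlapped for Rcd-1r (log2 difference -0.26, SE 0.132, limma's moderated test, adjusted p = 0.314), and read totals do not show whether a frameshift is present. Of 18 testis germline markers in the deposited table, only 12 were fitted, and the rest were not tested. None of these 12 and none of the 6 cyst cell markers fitted was called changed. Of 10 gut markers, among them the digestive trypsins, 7 were called lower in Zeus KO, with summed levels of 12146 to 15357 in Zeus KO libraries and 24551 to 25769 in control libraries. Of 11 accessory gland and duct markers in the table, 7 were fitted and 2 were called lower. Sums of those 7 were 21193 to 31471 in Zeus KO libraries and 31592 to 39919 in control libraries. The part of these tissues in the receptor values was not tested. In whole testes, fewer cells of a type and less RNA per cell cannot be told apart.

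Of 179 annotated protein-coding genes of the 3 families, 38 were in the table (21.2%), against 11392 of all 13986 annotated protein-coding genes (81.5%). The 38 receptors were 9 of 59 Or genes, 15 of 60 Gr genes and 14 of 60 Ir genes. Of these 38, 32 were detected (84.2%), while 11340 of all 11491 genes listed passed the same threshold (98.7%). The paper describes the 11491 genes as expressed in testes, so both shares are of a list already limited by expression. The detected members were 7 odorant, 12 gustatory and 13 ionotropic receptors. In Zeus KO 28 members were detected and in control 26, with 22 detected in both. Of the 38 members, 6 were detected only in Zeus KO and 4 only in control, against 131 and 102 of all 11491 genes.

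The members that were detected only in Zeus KO were Or83c, the farnesol receptor, the bitter receptor Gr66a, the co-receptor Ir76b, the trehalose receptor Gr5a, Ir62a, which takes part in calcium taste, and Ir7c, which takes part in the taste of high salt. Those detected only in control were Ir75a, an acetic acid receptor, the glucose receptor Gr61a, the bitter receptor Gr32a and the odorant receptor Or22b. Detection in only 1 group is not by itself a difference between groups. Ir75a, for example, averaged 9.71 in Zeus KO and 10.4 in control (limma's moderated test, adjusted p = 0.976). The 6 not detected were Or59a, Or94a, Gr28a, Gr43a, Gr59d and Ir75b. The threshold ran through a continuous range of values. Just inside it were Or83c (larger group mean 10.1 normalized reads), Ir75a (10.4) and Gr66a (11.5), and just outside it were Ir75b (9.71), Gr28a (8.88) and Or94a (8.67).

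**Figure D1:**
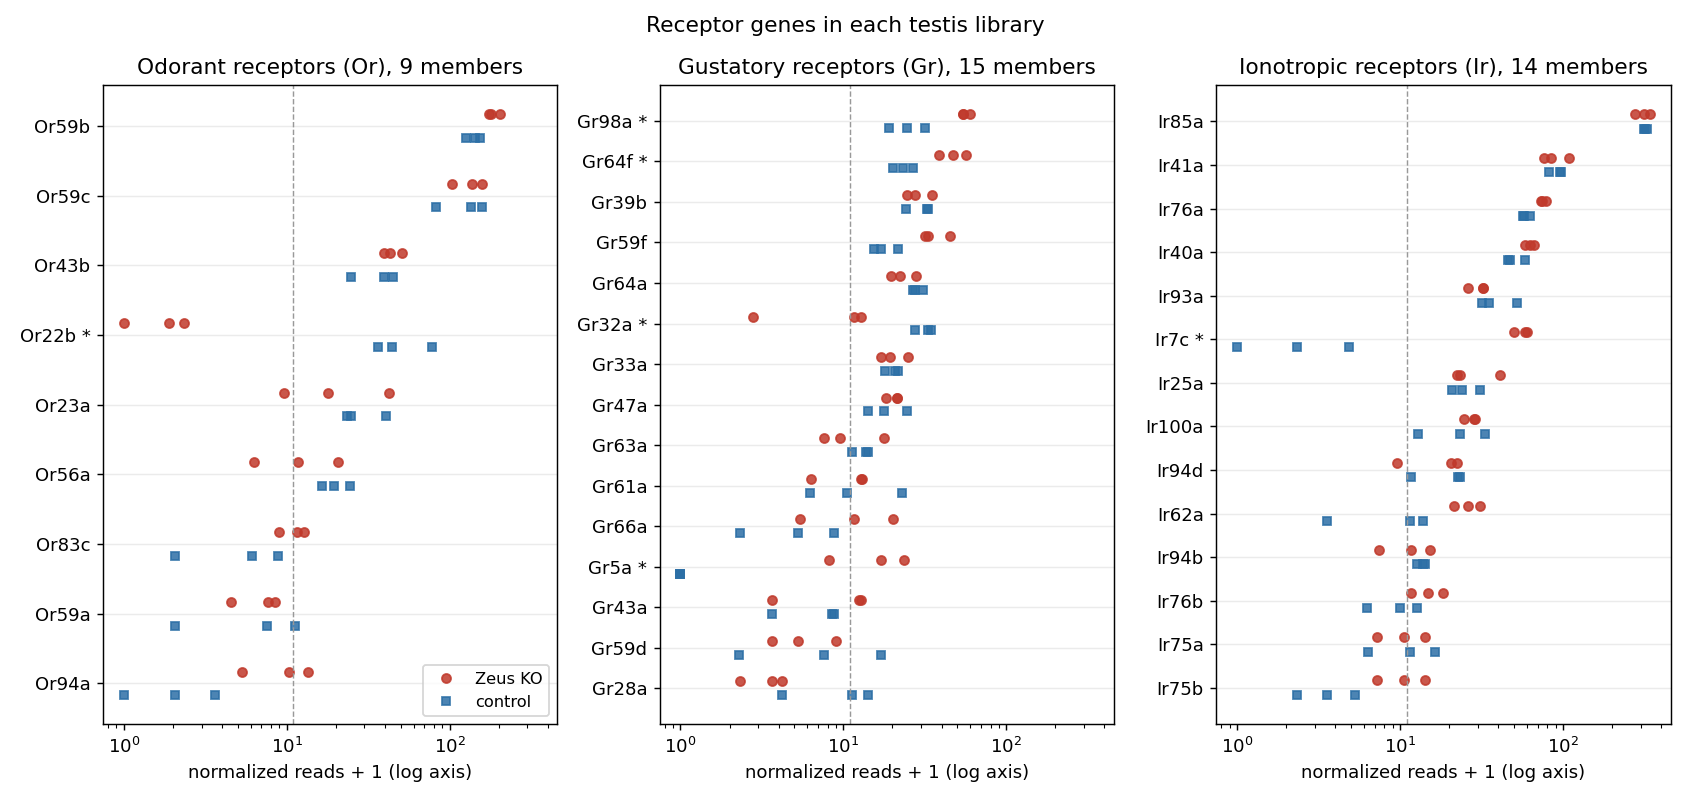
Normalized reads of the 38 receptor genes in each library (log scale of reads plus 1), by family, with Zeus KO points above control points for each gene. The dashed line marks the detection threshold of 10, and an asterisk marks the 6 genes that passed the test. Ir85a, Or59b and Or59c stand at the high end of the scale, and most other genes lie near or a few fold above the threshold.

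The receptors were weakly expressed. Per kilobase of exon, the median member had 12.0 normalized reads, against 163 for all genes fitted, and 0 of 38 members lay above that overall median. Together the 38 genes held 959 to 1647 whole reads per library. The precision was accordingly low, with a median SE of the log2 difference of 0.42 for members and 0.144 for all genes.

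On the scale per kilobase, Ir85a was highest (145 in Zeus KO and 150 in control), followed by Or59b (123 in Zeus KO and 93.6 in control) and Or59c (94.3 in Zeus KO and 88.8 in control). Ir85a shares 232 exonic bases with genes of the opposite strand, Pif1A and Pif1B. The paper describes no step of library preparation that keeps the strand, and the strand setting of the counting is not given. Reads over these bases therefore cannot be assigned to Ir85a alone. Or59b, a receptor for acetate esters, and Or59c, a receptor of the maxillary palp, lie 525 bases apart on chromosome 2R. Ir41a, known for polyamine sensing, followed with 38.01 in Zeus KO and 38.7 in control. Ir76a had 35.2 per kilobase in Zeus KO and 27.4 in control, and Or43b had 30.7 in Zeus KO and 25.0 in control, but Ir76a shares 297 exonic bases with CG14102 and Or43b 575 with Cul1. Or43b averaged 43.3 normalized reads in Zeus KO and 35.3 in control, with overlap. Of the 38 members, 9 share exonic bases with another gene, also Ir94d (429 bases), Gr43a (155) and Or23a (69), and the called members Gr5a, Gr32a and Gr64f described next.

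**Figure D2:**
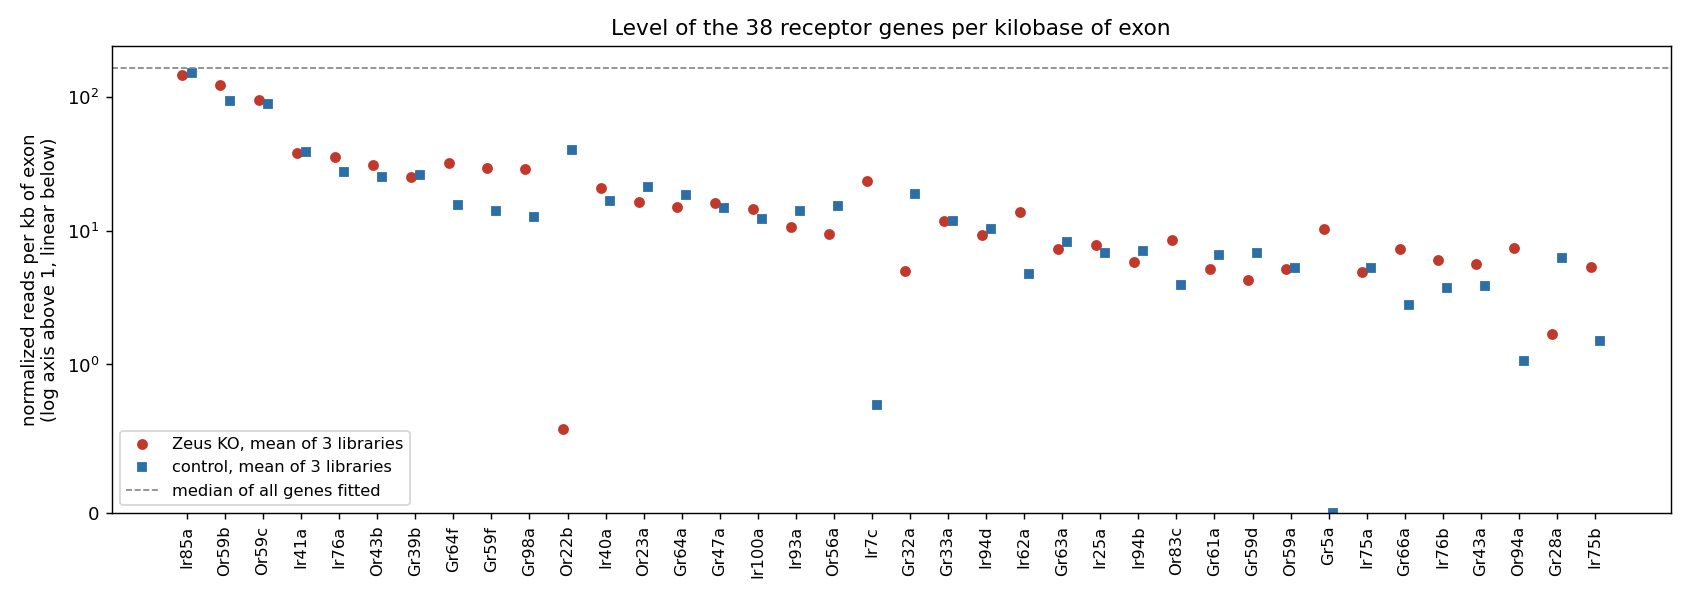
Level of each receptor in normalized reads per kilobase of exon (log axis above 1, linear below), with Zeus KO and control shown for each gene, and the median over all genes fitted as a line. Every receptor lies under the overall median of 163, and Ir85a, Or59b and Or59c come closest to it.

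Across the table, 6 of the 38 members were called changed (15.8%), where a call required a fold change of 1.5 or more and an adjusted p under 0.05 by limma's moderated test (Benjamini-Hochberg, over 11164 genes). The background was 4.06% of all genes tested. With no limit on the fold the count of members was again 6, against a background of 5.04%. The count was 3 when the Zeus KO library of the middle size factor, that of the smallest or the control library of the smallest was left out. In those 3 fits the background was 2.96%, 3.02% and 2.65% of all genes. Ir7c, Gr5a, Gr98a and Gr64f rose in Zeus KO (10.5% of members, against a background of 2.16%), and Or22b and Gr32a fell (5.26%, against 1.9%). At an unadjusted p under 0.05 there were 12 members (31.6%, against 18.9% of all genes). The Zeus KO libraries lay wholly above or below the control libraries for 13 members (34.2%, against 23.4% of all genes), above for 11 (background 11.8%) and below for 2 (background 11.6%).

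Log2 differences are given as Zeus KO minus control on the scale of log2(normalized reads + 1), which understates the change of weakly expressed genes. In what follows, libraries of a group are given in the order of their size factor, from the largest to the smallest, because the deposited values carry no replicate number.

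Or22b, the tandem neighbour of Or22a, which is expressed with it in the same antennal neurons, showed the largest fall among the members. Or22b had 0.888, 0 and 1.33 normalized reads in Zeus KO libraries, against 35.2, 77.0 and 43.4 in control libraries. The Zeus KO libraries held 2 reads in all, against 126 in the control libraries. Every control library exceeded every Zeus KO library. The log2 difference was -4.93 (SE 0.506, adjusted p = 0.000104), and the ratio of reads at equal depth was 0.0140 (95% interval 0.00167 to 0.0516, counting error only). Or22b lies on chromosome 2L at positions 1522697 to 1524257 of dm6. Or22a was not in the table, so exchange of reads between Or22a and Or22b was not examined.

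Ir7c, which acts with Ir25a and Ir76b in the taste of high salt, showed the largest rise. It had 59.5, 57.8 and 49.2 normalized reads in Zeus KO libraries, against 0, 3.85 and 1.32 in control libraries, from 158 reads against 4. The 3 Zeus KO libraries were close to each other and far above every control library. The log2 difference was 4.65 (SE 0.541, adjusted p = 0.00026), with a ratio of reads at equal depth of 34.8 (95% interval 13.3 to 129). Its co-receptors, described with the other partners, did not pass the test. Ir7c lies on chromosome X at positions 7874394 to 7876847, and the other Ir7 genes of the cluster, Ir7b, Ir7d, Ir7e, Ir7f and Ir7g, were not in the table.

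Gr5a, the trehalose receptor of sugar-sensing taste neurons, had 7.10, 22.5 and 15.9 normalized reads in Zeus KO libraries, against 0 in each of the 3 control libraries. This corresponds to 41 reads in Zeus KO and none in control, and at a floor of 3 reads over the control group the level in Zeus KO was at least 11.5-fold higher. The adjusted p was 0.0052 (log2 difference 3.89, SE 0.680). Gr5a lies on chromosome X at positions 5680617 to 5682488 and shares 1108 of its 1490 exonic bases with the antisense gene asRNA:CR44958. No strand-keeping step is described, so reads over the shared bases, and the rise, cannot be assigned to Gr5a alone. Without the Zeus KO library of the middle size factor the adjusted p was 0.068.

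Gr98a, a gustatory receptor on chromosome 3R at positions 27487927 to 27489968, had 58.6, 53.6 and 53.2 normalized reads in Zeus KO libraries and 18.1, 30.8 and 23.7 in control libraries. The groups did not overlap. The log2 difference was 1.18 (SE 0.255, adjusted p = 0.0193), and its call was lost without the Zeus KO library of the middle size factor (adjusted p = 0.0735), that of the smallest (0.0694) or the control library of the smallest (0.0801).

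Gr64f, the broadly required co-receptor of sugar receptors, had 46.2, 37.5 and 55.8 normalized reads in Zeus KO libraries and 19.2, 25.7 and 22.4 in control libraries. All Zeus KO libraries were above all control libraries. The log2 difference was 1.01 (SE 0.260, adjusted p = 0.0479). Gr64f lies on chromosome 3L at positions 4035799 to 4037575 and shares 53 exonic bases with CG11593. Its call was lost without any 1 of the 6 libraries, with adjusted p of 0.0651 to 0.215.

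Gr32a, a bitter receptor that also acts in male courtship, had 1.78, 11.8 and 10.6 normalized reads in Zeus KO libraries and 32.0, 33.4 and 26.3 in control libraries. No Zeus KO library reached the control range. The log2 difference was -2.08 (SE 0.535, adjusted p = 0.0479). Gr32a lies on chromosome 2L at positions 11114014 to 11115823 and shares 164 exonic bases with CG6230. Its call was lost without the Zeus KO library of the smallest size factor (adjusted p = 0.0537) and without each of the 3 control libraries (0.0731 to 0.163), and in 4 other fits. The authors' deposited overall mean of Gr32a was 79.0, against 19.3 over the 6 libraries used here. The further libraries behind that overall mean are not analysed here.

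**Figure D3:**
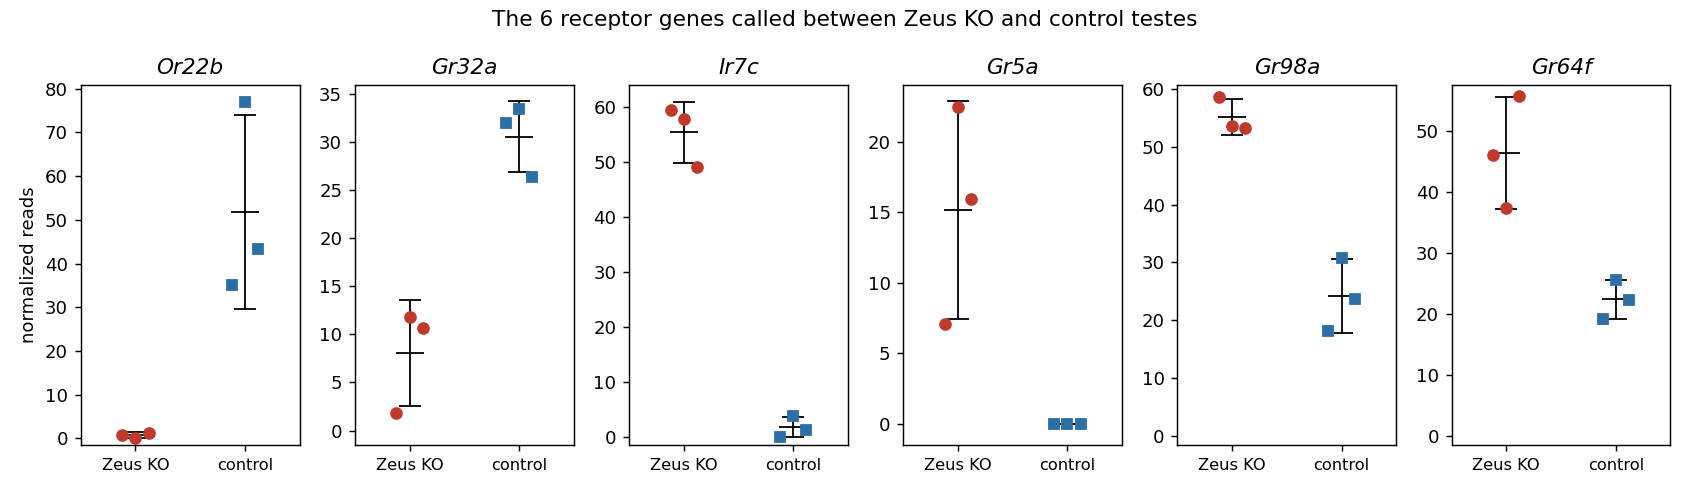
Normalized reads per library of the 6 receptors that passed the test, each with its own vertical scale, Zeus KO left of control. Bars give the mean ± SD (n = 3 each, with the lower end cut at 0), and the groups do not overlap in any of the 6 panels.

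Or22b and Ir7c passed under all 15 alternative settings, among them changes of the fold limit alone, which reuse the main fit. The 6 genes were spread over chromosomes 2L (2 of 8 members), 3L (1 of 10), 3R (1 of 8) and X (2 of 2). None of the 10 members on chromosome 2R was called. The share of all genes called on each chromosome was not computed, so these counts describe positions only. None of the genes fitted within 10000 bases of a called member was itself called, and CG6230, which overlaps Gr32a, and Dpy-30L2 near Gr64f were not tested.

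Read by role, the 5 sugar receptors included the 2 rises of Gr5a and Gr64f, and the other 3 did not pass the test. The sugar and bitter groups were formed after values were seen, so these counts are descriptions. Over all genes tested, 2.16% were called higher and 1.9% lower. Gr64a, which lies in the Gr64 cluster with Gr64f, had 18.6, 26.8 and 21.3 normalized reads in Zeus KO libraries and 29.8, 25.7 and 26.3 in control libraries (log2 difference -0.30, SE 0.275, adjusted p = 0.615). Its 2 groups overlapped, and its difference had the opposite sign to that of Gr64f. Gr61a averaged 9.69 normalized reads in Zeus KO and 12.2 in control, and the fructose receptor Gr43a averaged 8.66 in Zeus KO and 5.93 in control.

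Among 7 receptors grouped as bitter receptors, Gr32a alone passed the test. Gr33a, a co-receptor for bitter compounds, averaged 19.4 normalized reads in Zeus KO and 19.1 in control. Gr66a, a marker of bitter neurons, had 4.44, 19.3 and 10.6 in Zeus KO libraries and 4.26, 7.70 and 1.32 in control libraries, with overlap (log2 difference 1.20, SE 0.653, adjusted p = 0.351). Gr59f was higher in every Zeus KO library, with 44.4, 32.1 and 30.6 against 15.99, 20.5 and 14.5, but its adjusted p was 0.0707 (log2 difference 1.02, SE 0.289). Gr39b (28.0 normalized reads in Zeus KO and 28.9 in control), Gr47a (19.3 in Zeus KO and 17.8 in control) and Gr59d (4.98 in Zeus KO and 7.95 in control) had groups that overlapped. The carbon dioxide receptor subunit Gr63a averaged 10.7 in Zeus KO and 12.1 in control, and Gr28a, which senses RNA and ribonucleosides in larvae, averaged 2.40 in Zeus KO and 8.88 in control (log2 difference -1.41, adjusted p = 0.262).

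Of the 9 odorant receptors, Or22b alone passed. Or59b, the most abundant, had 172, 202 and 179 normalized reads in Zeus KO libraries and 153, 143 and 125 in control libraries. Its groups did not overlap, but the difference was small (log2 0.40, SE 0.147, adjusted p = 0.173). Or59c, its neighbour, had 103, 136 and 157 in Zeus KO libraries and 158, 80.9 and 134 in control libraries, and here the groups overlapped. Or56a, the geosmin receptor, averaged 11.9 in Zeus KO and 19.1 in control (log2 difference -0.79, SE 0.447, adjusted p = 0.374). Or23a averaged 22.2 in Zeus KO and 28.6 in control, and Or59a 5.90 in Zeus KO and 5.97 in control, both with overlap. Or83c lay above control in every Zeus KO library, at 7.99, 11.8 and 10.6 against 1.07, 5.14 and 7.90 (adjusted p = 0.311). Or94a had 12.4, 4.28 and 9.30 in Zeus KO libraries and 1.07, 0 and 2.63 in control libraries, from 25 reads against 3, with a ratio of reads at equal depth of 7.34 (95% interval 2.24 to 37.98) and an adjusted p of 0.120. Its groups did not overlap, but it was under the detection threshold in both.

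Among the ionotropic receptors only Ir7c passed. Ir62a, also a receptor of taste neurons, had 20.4, 30.0 and 25.2 normalized reads in Zeus KO libraries and 12.8, 2.57 and 10.5 in control libraries, and its groups did not overlap (log2 difference 1.65, SE 0.498, adjusted p = 0.0908). Of the humidity sensors, Ir40a averaged 61.3 in Zeus KO and 49.5 in control, and Ir93a averaged 29.1 in Zeus KO and 38.7 in control, and neither passed. Ir85a, the most abundant member, had 340, 276 and 312 in Zeus KO libraries and 313, 318 and 328 in control libraries, with a log2 difference of -0.05 (SE 0.122). Ir41a averaged 89.1 in Zeus KO and 90.7 in control. Ir76a had 78.1, 71.8 and 73.1 in Zeus KO libraries and 55.4, 61.6 and 56.6 in control libraries, without overlap but with a small difference (log2 0.36, SE 0.180, adjusted p = 0.314). Overlap was also seen for Ir100a (26.3 in Zeus KO and 22.1 in control), Ir94b (10.4 in Zeus KO and 12.6 in control) and Ir94d (16.5 in Zeus KO and 18.3 in control). Ir75b averaged 9.71 in Zeus KO and 2.72 in control (log2 difference 1.55, SE 0.567, adjusted p = 0.165). Ir75a and Ir75b, which lie 152 bases apart on the same strand without shared exonic bases, had the same reads in each Zeus KO library (7, 9 and 10). Their reads differed in the control libraries (5, 12 and 8 for Ir75a against 4, 2 and 1 for Ir75b). Exchange of reads between these neighbours was not tested.

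**Figure D4:**
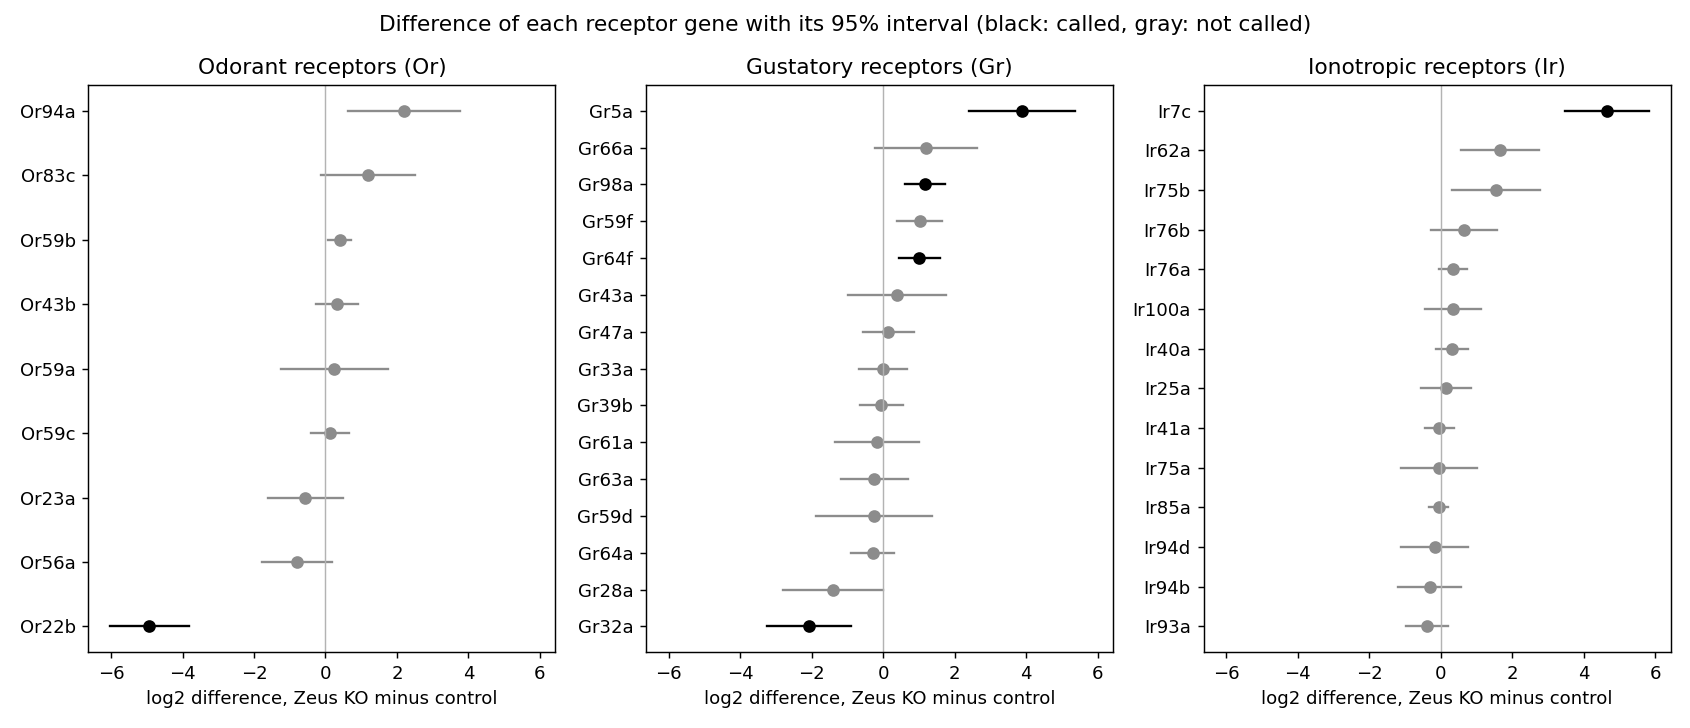
Log2 difference of Zeus KO minus control for the 38 receptors, with the 95% interval of limma's moderated test, by family and sorted by size. The interval is not adjusted for the number of genes tested, and the 32 genes not called lie between -1.41 and 2.20.

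The 32 members that were not called had log2 differences of -1.41 to 2.20 with SE of 0.122 to 0.738. Their median half-width of the 95% interval was 0.90, so for many of them a change of 1.5-fold was not detectable at this depth. Of all 38 members, 22 had a positive and 16 a negative difference, and the median log2 difference was 0.15, against 0.003 over all genes fitted. That median depended on single control libraries, at 0.32 without the one of the largest size factor, 0.26 without the middle one and 0.023 without the smallest, and it was 0.0038 over members with a mean of at least 10. Summed over each family, the odorant receptors averaged 419.5 ± 31.6 normalized reads in Zeus KO and 411.4 ± 26.8 in control (SD, n = 3 each). The gustatory receptors averaged 297.3 ± 7.25 in Zeus KO and 238.7 ± 17.9 in control, and the ionotropic receptors 758.6 ± 23.5 in Zeus KO and 666.0 ± 8.71 in control. Within the Ir sum, Ir85a gave 309.6 in Zeus KO and 319.8 in control, and the called member Ir7c gave 55.5 in Zeus KO and 1.72 in control. Within the Or sum, Or22b gave 0.739 in Zeus KO and 51.9 in control, and Or59b 184.7 in Zeus KO and 140.3 in control. Within the Gr sum, Gr98a gave 55.1 in Zeus KO and 24.2 in control, and Gr32a 8.06 in Zeus KO and 30.6 in control. The median log2 difference was 0.25 for Or, 0.0038 for Gr and 0.23 for Ir members. These sums and medians are descriptions without a test.

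Of the 3 olfactory partners fitted, 1 was called higher, and none of the co-receptors Orco, Ir25a and Ir76b passed the test. The co-receptor Orco averaged 12.1 normalized reads in Zeus KO and 7.94 in control (log2 difference 0.54, SE 0.507, adjusted p = 0.623). Among the ionotropic co-receptors, Ir25a averaged 27.8 in Zeus KO and 24.2 in control, and Ir76b 13.95 in Zeus KO and 8.66 in control, and neither passed, while Ir8a was not in the table. Snmp2, a CD36-like membrane protein of the antenna, was singled out after its values were seen. It had 91.5, 93.2 and 94.4 normalized reads in Zeus KO libraries against 26.6, 27.0 and 32.9 in control libraries (log2 difference 1.66, SE 0.201, adjusted p = 0.000351), and its relative Snmp1 averaged 39.3 in Zeus KO and 36.5 in control. Of 9 chemosensory signalling genes and 8 transcription factors of the chemosensory list that were fitted, none was called. With no limit on the fold 1 would be, the phospholipase C gene norpA, which averaged 271 in Zeus KO and 185 in control without overlap (log2 difference 0.55, SE 0.132, adjusted p = 0.0355).

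Because receptors of this kind belong mainly to neurons, neuron markers were examined beside them. Of 12 fitted, 2 were called higher in Zeus KO, the active zone gene brp (mean 217 in Zeus KO and 129 in control) and the neuronal Na/K ATPase subunit nrv3 (148 in Zeus KO and 51.2 in control). In contrast, nSyb (207 in Zeus KO and 239 in control) and cpx (128 in Zeus KO and 150 in control) were lower without overlap, but not called. The median log2 difference of the 12 was -0.0038. Summed levels of the list overlapped between groups, at 1002 to 1194 in Zeus KO libraries and 932 to 1095 in control libraries, and VAChT and VGlut were not in the table. Of the 2 glia markers fitted none was called, and repo was not in the table. The glia sums did not overlap, at 1849 to 1986 in Zeus KO libraries and 1468 to 1747 in control libraries, and Gs2, a glutamine synthetase, was higher at an adjusted p of 0.0462 but under the fold limit (log2 difference 0.36). Fat body markers (1 higher and 2 lower of 5) summed to 1318 to 1519 in Zeus KO libraries and 2261 to 2760 in control libraries, and muscle markers (2 higher and 1 lower of 9) to 22621 to 25435 in Zeus KO libraries and 18926 to 22297 in control libraries. The part of these markers in the receptor differences was not tested.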

How the data were processed

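RNA from whole testes was sequenced as 50-base reads in 3 Zeus KO and 3 control libraries. The authors mapped reads to dm6 with STAR, counted genes with featureCounts and deposited group means of size-factor normalized counts (a signal, with no correction for gene length). Columns of the authors' own comparison (fold changes, standard errors, p and q values and calls) were not used. The deposited FastQC summary gave the count of sequences and the percent of GC bases (51 to 52) and of deduplicated reads (31.4 to 38.5 in Zeus KO, 33.1 to 34.0 in control). No use was made of 3 other per-library columns in it.

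The 15-digit group means were solved for whole reads per library (11178 of 11491 genes, 97.3%, among them all 38 members). The 313 unsolved genes, highly expressed, hold 36.2% of normalized reads and were not tested. For 36 members the deposited overall mean differed by more than 1% from the mean of the 2 groups, so the authors' fit held further libraries, which are not analysed here. Libraries bear no replicate number.

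Values were tested as log2(normalized reads + 1) in limma 3.58.1 (R 4.3.3, eBayes with trend) over 11164 genes with a mean of at least 1, with Benjamini-Hochberg adjustment. A call needed a fold change of 1.5 or more at an adjusted p under 0.05. P-values measure the spread between libraries of a group, which the study calls biological triplicates. Intervals of read ratios are exact and cover counting error only. Positions and exon overlaps come from Ensembl release 115. Alternatives were the pseudocount, the filter, quantile normalization, voom, no trend, the fold limit and each library left out.

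Named genes were the called members, the 10 most abundant, detected members with an unadjusted p under 0.05, members at 0 in 1 group, those nearest the threshold, co-receptors and paralog neighbours, and others appear in groups by known role (sugar, bitter), formed after values were seen. Members, lists and tests were chosen with earlier results of these data known.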

Additional observations from a re-analysis of the deposited data

How the results depend on the processing

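Calls for Or22b and Ir7c held under all 15 alternative settings. Leaving out each library in turn gave 3 to 5 called members instead of 6, where 2.65% to 4.97% of all genes were called. The median log2 difference of the members was then 0.0231 to 0.32. With only genes of a mean of at least 10 the median was 0.0038. Of the 29 members then fitted 4 were called, against 4.12% of all genes fitted. With a threshold of 20 in place of 10, 20 members were detected instead of 32. The call of Gr64f was also lost under voom, and that of Gr32a under a pseudocount of 0.5, quantile normalization, a fit without a trend and the filter at 10. Gr59f gained a call without a trend, and Ir62a when the control library with the largest size factor was left out.

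No called member changed sign, and 15 uncalled members did in at least 1 alternative. Gr33a turned to -0.024 under voom. With libraries left out, log2 differences ranged from -0.15 to 0.13 for Gr33a, -0.19 to 0.065 for Gr39b, -0.036 to 0.97 for Gr43a, -0.035 to 0.36 for Gr47a, -1.02 to 0.42 for Gr59d, -0.61 to 0.32 for Gr61a and -0.60 to 0.0076 for Gr63a. They ranged from -0.029 to 0.65 for Ir100a, -0.13 to 0.31 for Ir25a, -0.18 to 0.071 for Ir41a, -0.42 to 0.27 for Ir75a, -0.12 to 0.027 for Ir85a, -0.50 to 0.22 for Ir94d, -0.47 to 0.75 for Or59a, -0.16 to 0.32 for Or59c and -0.13 to 0.21 for Snmp1. The causes were not tested.

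No paired analysis was possible because the deposited columns carry no replicate numbers. With 3 libraries a group and few reads per receptor, small changes were not detectable.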
